A study of Rattus norvegicus with 12 samples.

Results

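The expression of 9 genes of methionine, S-adenosylmethionine (SAM) and folate metabolism was examined in neonatal rat ventricular myocytes (NRVMs), cultured heart muscle cells from newborn Sprague-Dawley rats. The members were the rows of the deposited tables that carry the symbols Slc25a26, Mat2a, Mat2b, Ahcy, Ahcyl1, Mtr, Mtrr, Mthfd2 and Shmt2, 9 of 18469 genes, and all 9 were tested in every comparison. Cells received a negative control siRNA (siNeg) or an siRNA against Slc25a26 (siSlc25a26), and phenylephrine (PE), an agonist of the alpha-1 adrenergic receptor that drives cardiomyocyte hypertrophy, was present for 36 h from 12 h after transfection in the groups siNeg.PE and siSlc25a26.PE. The 4 groups held 3 libraries each, described by the labels as independent biological replicates, and all were cultured in medium with an insulin, transferrin and selenium supplement. One siRNA per target is labelled, so effects of the sequence and of the loss of the target cannot be told apart.

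SAM, made from methionine and ATP, is the methyl donor of most cellular methylation reactions. Its product S-adenosylhomocysteine (SAH) inhibits methyltransferases and is hydrolysed to homocysteine, which is methylated back to methionine with a methyl group carried by folate. Serine supplies the folate pool with one-carbon units, largely inside mitochondria, and SAM made in the cytosol enters mitochondria through the carrier encoded by Slc25a26.

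The promoter is shown for the 6 members other than Slc25a26 that passed a test in at least 1 comparison (Mat2a, Mat2b, Ahcy, Mtr, Mthfd2 and Shmt2), as the stretch in which these transcripts start. The windows run from 250 bases before to 50 after the RefSeq start site in the GRCr8 build, 5′ to 3′ on the strand of the gene, and 8 of the 9 members had one. Capitals mark matches to the CCAAT box (CCAAT, or ATTGG on the other strand), the TATA box (TATAAA) and the site of nuclear respiratory factor NRF1 (the capitals of the Shmt2 window), each searched on both strands. The windows are chr4:106053563-106053862, chr10:25622720-25623019, chr3:164044513-164044812, chr4:117380301-117380600 and chr7:65249518-65249817 on the minus strand and chr17:62911528-62911827 on the plus strand, and these are not coordinates of the deposited files, for which the labels name Rnor_6.0.
Mat2a: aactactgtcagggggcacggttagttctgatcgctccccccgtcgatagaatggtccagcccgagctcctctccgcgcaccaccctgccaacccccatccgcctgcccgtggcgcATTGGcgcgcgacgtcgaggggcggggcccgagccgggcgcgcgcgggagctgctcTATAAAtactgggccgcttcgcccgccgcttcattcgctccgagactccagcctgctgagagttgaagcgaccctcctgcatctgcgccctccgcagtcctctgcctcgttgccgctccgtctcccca
Mat2b: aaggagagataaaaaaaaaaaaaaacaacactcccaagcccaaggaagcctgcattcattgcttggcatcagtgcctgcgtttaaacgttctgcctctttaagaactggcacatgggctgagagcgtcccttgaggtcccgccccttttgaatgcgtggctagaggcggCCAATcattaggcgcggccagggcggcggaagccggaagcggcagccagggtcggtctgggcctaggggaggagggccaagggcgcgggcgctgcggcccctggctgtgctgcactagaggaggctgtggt
Ahcy: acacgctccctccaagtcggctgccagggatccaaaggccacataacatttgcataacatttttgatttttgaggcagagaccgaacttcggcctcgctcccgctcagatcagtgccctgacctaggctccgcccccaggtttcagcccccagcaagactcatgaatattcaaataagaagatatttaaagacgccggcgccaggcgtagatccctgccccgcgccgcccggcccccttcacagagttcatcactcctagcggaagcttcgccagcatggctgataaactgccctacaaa
Mtr: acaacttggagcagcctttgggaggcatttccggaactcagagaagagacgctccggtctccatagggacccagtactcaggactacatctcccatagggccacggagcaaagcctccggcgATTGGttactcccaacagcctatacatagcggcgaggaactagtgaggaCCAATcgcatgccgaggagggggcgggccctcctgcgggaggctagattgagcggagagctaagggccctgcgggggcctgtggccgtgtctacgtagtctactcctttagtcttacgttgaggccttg
Mthfd2: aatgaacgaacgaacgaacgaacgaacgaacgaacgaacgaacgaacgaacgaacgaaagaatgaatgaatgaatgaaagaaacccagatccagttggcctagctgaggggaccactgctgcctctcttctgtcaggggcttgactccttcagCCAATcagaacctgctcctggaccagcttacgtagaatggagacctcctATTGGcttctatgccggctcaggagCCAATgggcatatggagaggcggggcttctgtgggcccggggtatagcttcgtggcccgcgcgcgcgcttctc
Shmt2: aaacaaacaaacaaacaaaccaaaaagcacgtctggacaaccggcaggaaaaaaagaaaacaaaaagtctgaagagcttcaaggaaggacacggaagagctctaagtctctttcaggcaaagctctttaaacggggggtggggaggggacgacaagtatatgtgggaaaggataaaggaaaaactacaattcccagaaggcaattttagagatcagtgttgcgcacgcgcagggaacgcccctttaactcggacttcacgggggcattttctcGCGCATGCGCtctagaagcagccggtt

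A CCAAT box lay in 6 of the 8 member windows (Mat2a, Mat2b, Mthfd2, Ahcyl1, Mtr and Mtrr) and in 37.5% of the 33469 rat promoters searched. Mthfd2 held 3 of them, the first at -97 to -93 from the start site. The NRF1 site occurred in 0.852% of all promoters and, among the members, in Shmt2 at +24 to +33. The TATA box of Mat2a lay at -78 to -73, and 14.2% of promoters held one. The Ahcy window held none of the motifs searched. The E-box CACGTG (6.42% of promoters) and the core TGATGNAA, read by the stress factor ATF4 (3.98%), matched in 0 of the 8 windows. These are matches of letters in a window.

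Slc25a26 (gene ID 362403), the mitochondrial SAM carrier and the siRNA target, differed most between groups among the members. Counts scaled to a common library size (CPM, with TMM factors over all 12 libraries) were 33.2, 31.6 and 29.3 in siNeg, 113, 106 and 86.2 in siNeg.PE, 15.8, 14.9 and 14.7 in siSlc25a26, and 102, 106 and 98.8 in the libraries labelled siSlc25a26.PE. The siSlc25a26 libraries lay below every siNeg library, and both PE groups lay above all libraries without PE, but the libraries labelled siSlc25a26.PE fell within the range of siNeg.PE. Without PE the siRNA lowered Slc25a26 2.11-fold (log2 fold change -1.08 ± 0.0798, SE, adjusted p = 1.08e-05, edgeR quasi-likelihood test). A larger fall was fitted for 2.57% of genes.

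Under PE the target was not lower in the libraries labelled siSlc25a26.PE than in siNeg.PE: the log2 fold change was -0.0062 (SE 0.101, adjusted p = 0.969), and its 95% interval ran from 0.85-fold to 1.17-fold. The Slc25a26 transcript therefore goes against the label of these 3 libraries, and every value given below for siSlc25a26 under PE, for PE in siSlc25a26 and for the difference of PE effects rests on libraries so labelled. In the same 3 libraries 14 interferon-induced genes summed to 5444 to 6005 CPM, against 187 to 206 in siNeg.PE. Without PE 13 of these genes were tested, and all 13 rose with siSlc25a26. PE raised Slc25a26 3.22-fold in siNeg (log2 fold change 1.69 ± 0.102, adjusted p = 1.79e-05) and 6.82-fold in siSlc25a26 (2.77 ± 0.061, adjusted p = 1.49e-08). The PE effect was 2.08-fold larger with siSlc25a26 than with siNeg (difference of log2 fold changes 1.06 ± 0.128, adjusted p = 4.66e-04). This difference restates the lower level of the target with siSlc25a26 without PE, since both PE groups had a mean of 102 CPM.

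**Figure D1:**
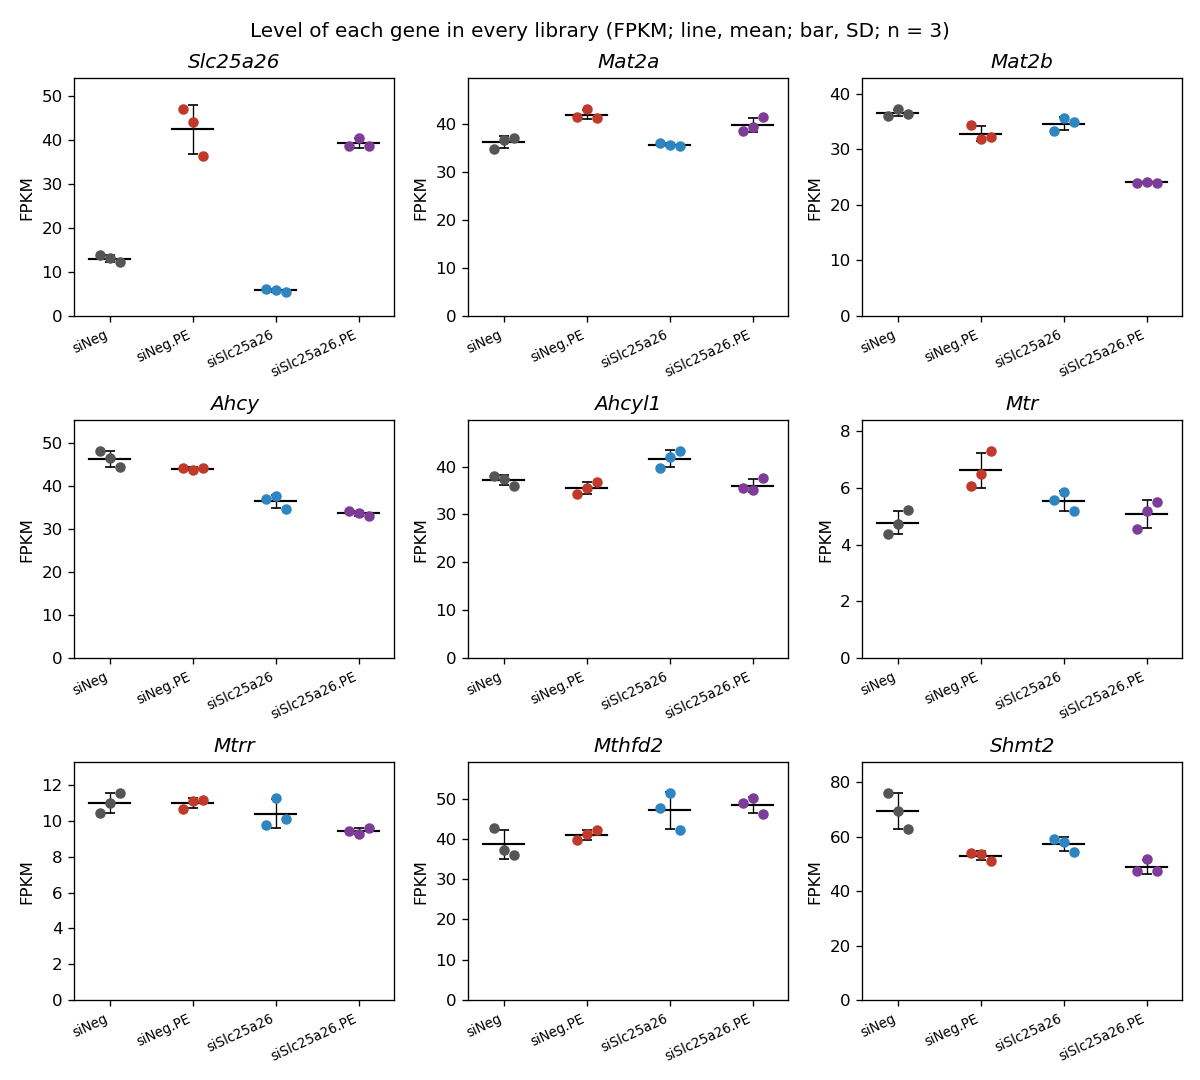
FPKM (fragments per kilobase of transcript, scaled to the library total) of the 9 members in each of the 12 libraries, with the mean and SD of each group of 3. Slc25a26 lies at 36.32 to 46.99 in both PE groups against 5.41 to 13.81 without PE, while the ranges of the other members lie closer together.

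Per transcript length, on the scale of FPKM (fragments per kilobase of transcript, scaled to the library total), Slc25a26 moved through the order of the members. Its mean FPKM was 13 in siNeg, rank 7 of 9, and 42.5 in siNeg.PE, rank 3, where its libraries overlapped those of Ahcy and Mat2a. It was 5.82 in siSlc25a26, rank 8, overlapping Mtr, and 39.3 in the libraries labelled siSlc25a26.PE, rank 4, overlapping Mat2a. In siNeg the order of mean FPKM was Shmt2 (69.4), Ahcy (46.4), Mthfd2 (38.6), Ahcyl1 (37.1), Mat2b (36.5), Mat2a (36.3), Slc25a26, Mtrr (11) and Mtr (4.78), and neighbours from Mthfd2 to Mat2a overlapped between libraries. Shmt2 ranked first in all 4 groups, though with overlap of Mthfd2 in the libraries labelled siSlc25a26.PE.

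The 2 deposited tables also carry information on the transcript length behind each value, because FPKM divides a count by a length and a library total. The length implied for Slc25a26, relative to its siNeg mean and with each library scaled to its median gene, was 110.6% in siSlc25a26, 96.0% in siNeg.PE and 98.7% in the libraries labelled siSlc25a26.PE. Only 0.555% of 7393 genes with enough reads shifted further in siSlc25a26. Among the other members the largest shift in that group was that of Mat2a, 101.9%, and Ahcy and Mthfd2 stood at 100.0%. Estimated counts of Slc25a26 and Mtr were not whole in 12 of 12 libraries, and those of Mat2a in 11. Such values arise when reads are divided between genes, but which other genes shared them was not tested. These levels are therefore less certain than those of the other 6 members, whose counts were whole throughout.

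**Figure D2:**
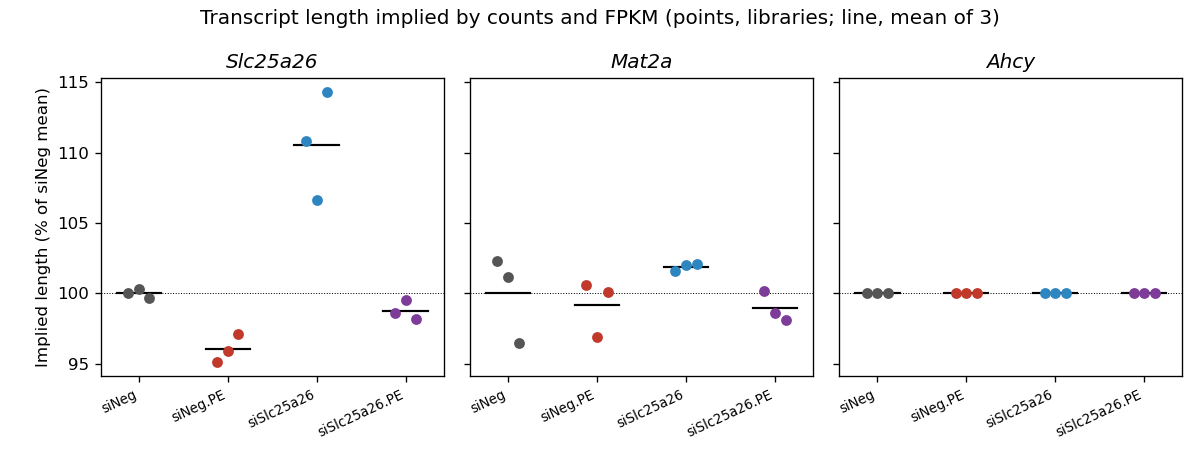
Transcript length implied by count over FPKM for Slc25a26, Mat2a and Ahcy in each library, as a percentage of the siNeg mean of the gene. Slc25a26 lies between 106.6% and 114.3% in the siSlc25a26 libraries and between 95.1% and 99.5% in both PE groups.

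Mat2a and Mat2b encode the catalytic and regulatory subunits of the methionine adenosyltransferase that makes SAM outside the liver. Mat2a CPM was 138, 143 and 139 in siNeg, 170, 169 and 163 in siNeg.PE, 138, 137 and 139 in siSlc25a26, and 166, 165 and 171 in the libraries labelled siSlc25a26.PE. Both PE groups lay above both groups without PE, and the siRNA groups overlapped their controls. PE raised Mat2a 1.18-fold in siNeg (log2 fold change 0.24 ± 0.047, adjusted p = 0.00357) and 1.22-fold in siSlc25a26 (0.29 ± 0.0454, adjusted p = 7.03e-04), with a difference between these effects of 0.022 (95% interval -0.11 to 0.15). With siSlc25a26 the Mat2a log2 fold change was -0.050 without PE and -0.011 under PE, neither past the test.

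Mat2b CPM was 54.5, 56.5 and 54.8 in siNeg, 54.5, 50.9 and 48.8 in siNeg.PE, 49.1, 52.5 and 52.4 in siSlc25a26, and 41.5, 41 and 40.1 in the libraries labelled siSlc25a26.PE. The last group lay below all 9 other libraries. Mat2b fell 1.27-fold there against siNeg.PE (log2 fold change -0.34 ± 0.0709, adjusted p = 0.00506) and 1.25-fold against siSlc25a26 (-0.32 ± 0.0571, adjusted p = 0.00149). The difference of the PE effects, -0.22 (95% interval -0.39 to -0.054), had an adjusted p of 0.0877. On the FPKM scale it was -0.36 (pseudocount 1, adjusted p = 0.00314, limma), where the median of all genes was -0.11. Without PE the log2 difference with siSlc25a26 was -0.13 (adjusted p = 0.0763), and it passed without siNeg 3 (-0.16, adjusted p = 0.0415).

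Ahcy, the enzyme that hydrolyses SAH, fell with siSlc25a26 both without and under PE. Its CPM was 91.6, 88.5 and 84.7 in siNeg, 88.7, 87.1 and 85.7 in siNeg.PE, 68.5, 69.9 and 65.1 in siSlc25a26, and 72.2, 70.3 and 68.2 in the libraries labelled siSlc25a26.PE. Every library with the Slc25a26 siRNA lay below every siNeg library, whereas the groups with and without PE overlapped for either siRNA. The fall was 1.33-fold without PE (log2 fold change -0.41 ± 0.0542, adjusted p = 4.14e-04) and 1.25-fold under PE (-0.32 ± 0.0591, adjusted p = 0.00266). The log2 fold change with PE was -0.030 in siNeg and 0.061 in siSlc25a26, neither past the test.

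Ahcyl1, a relative of Ahcy without its enzyme activity that acts in calcium signalling, passed no test in the count fits of the 4 comparisons and of their difference. Its mean CPM was 123 ± 1.68 (SD, n = 3) in siNeg, 125 ± 2.65 in siNeg.PE, 136 ± 3.76 in siSlc25a26 and 129 ± 3.07 in the libraries labelled siSlc25a26.PE. The 3 siSlc25a26 libraries lay above siNeg without overlap, at a log2 difference of 0.11 (95% interval 0.0070 to 0.22) and an adjusted p of 0.0776. This difference passed with all 12 libraries in 1 fit (0.14, adjusted p = 0.0203) and on the FPKM scale (0.16, adjusted p = 0.0281, limma, pseudocount 1). The median of all genes was 0.040 and 0.053 in these 2 fits. With PE in siSlc25a26 the Ahcyl1 log2 fold change was -0.059 in the count fit and -0.20 on the FPKM scale (adjusted p = 0.00975), where the median of all genes was -0.13.

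Mtr, methionine synthase, which uses a cobalamin cofactor to methylate homocysteine, was higher with PE in siNeg but did not pass that test in siSlc25a26. Its CPM was 35.8, 38.1 and 42.5 in siNeg, 51.2, 54.8 and 59.8 in siNeg.PE, 44.1, 46 and 40.8 in siSlc25a26, and 40.6, 45.3 and 48 in the libraries labelled siSlc25a26.PE. The siNeg.PE libraries lay above all others, and the remaining groups overlapped one another. PE raised Mtr 1.41-fold in siNeg (log2 fold change 0.50 ± 0.0886, adjusted p = 0.00249), and the log2 fold change in siSlc25a26 was 0.043 (95% interval -0.14 to 0.22, adjusted p = 0.676).

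The difference between these PE effects on Mtr, -0.48 ± 0.122, passed the test (adjusted p = 0.026), and so did the fall under PE with siSlc25a26, 1.25-fold (-0.32 ± 0.0866, adjusted p = 0.0178). Both calls were lost when certain single libraries were left out, with log2 values of like size. The difference was -0.41 to -0.49 with an adjusted p of 0.057 to 0.0761 when siNeg 1 or 2, siNeg.PE 3, siSlc25a26 1 or 2, or the library labelled siSlc25a26.PE 2 was left out, and the fall was -0.25 to -0.33 with an adjusted p of 0.0514 to 0.0601 without siNeg.PE 2 or 3 or the libraries labelled siSlc25a26.PE 1 or 2.

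Mtrr, the reductase that restores the cobalamin of methionine synthase, passed no test in the same fits. Its mean CPM was 29.9 ± 0.962 (SD, n = 3) in siNeg, 30.3 ± 0.672 in siNeg.PE, 27.6 ± 1.08 in siSlc25a26 and 27.3 ± 0.292 in the libraries labelled siSlc25a26.PE. Its libraries lay lower with siSlc25a26 without overlap, both without PE (log2 difference -0.14, adjusted p = 0.108) and under PE (-0.16, 95% interval -0.30 to -0.0094, adjusted p = 0.086). The value under PE passed in 4 of 14 alternatives (adjusted p 0.0311 to 0.0493 in these). The PE effects on Mtrr were 0.0080 in siNeg and -0.0021 in siSlc25a26 on the log2 scale.

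Shmt2 and Mthfd2 act in sequence in mitochondria, where Shmt2 moves a one-carbon unit from serine to folate and Mthfd2 oxidises the product. Shmt2 CPM was 147, 134 and 121 in siNeg, 110, 109 and 101 in siNeg.PE, 112, 110 and 104 in siSlc25a26, and 102, 109 and 99 in the libraries labelled siSlc25a26.PE. The siNeg libraries lay above all 9 others, and the other groups overlapped. Shmt2 fell 1.27-fold with PE in siNeg (log2 fold change -0.34 ± 0.077, adjusted p = 0.00711) and 1.26-fold with siSlc25a26 without PE (-0.33 ± 0.0728, adjusted p = 0.00577). From the other starting points the log2 fold changes of Shmt2 were -0.060 with PE in siSlc25a26 and -0.056 with siSlc25a26 under PE, and the difference of the PE effects, 0.26 (95% interval 0.046 to 0.47), had an adjusted p of 0.113, or 0.0354 without siNeg 3 (0.33). On the FPKM scale Shmt2 passed with PE in siSlc25a26 (-0.23, adjusted p = 0.0089, limma, pseudocount 1), where the median of all genes was -0.13.

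Mthfd2 CPM was 82.6, 71.7 and 69.6 in siNeg, 80.9, 83.4 and 82.8 in siNeg.PE, 89.7, 96.3 and 80.3 in siSlc25a26, and 105, 106 and 96.8 in the libraries labelled siSlc25a26.PE. The last group lay above all others, and siNeg overlapped both neighbouring groups through its first library. Mthfd2 rose 1.24-fold with siSlc25a26 under PE (log2 fold change 0.31 ± 0.0587, adjusted p = 0.00331). The rise with PE in siSlc25a26 (0.22 ± 0.0711, adjusted p = 0.0298) was lost without siSlc25a26 1 or 3, or the libraries labelled siSlc25a26.PE 1 or 2 (adjusted p 0.0518 to 0.101). It was also lost on the FPKM scale (pseudocount 1), where the log2 difference was 0.045 and the median of all genes -0.13. Without PE the log2 difference with siSlc25a26 was 0.22 at an adjusted p of 0.0551, and it passed without siNeg 1 (0.30, adjusted p = 0.0168) or without siSlc25a26 3 (0.29, adjusted p = 0.0296).

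**Figure D3:**
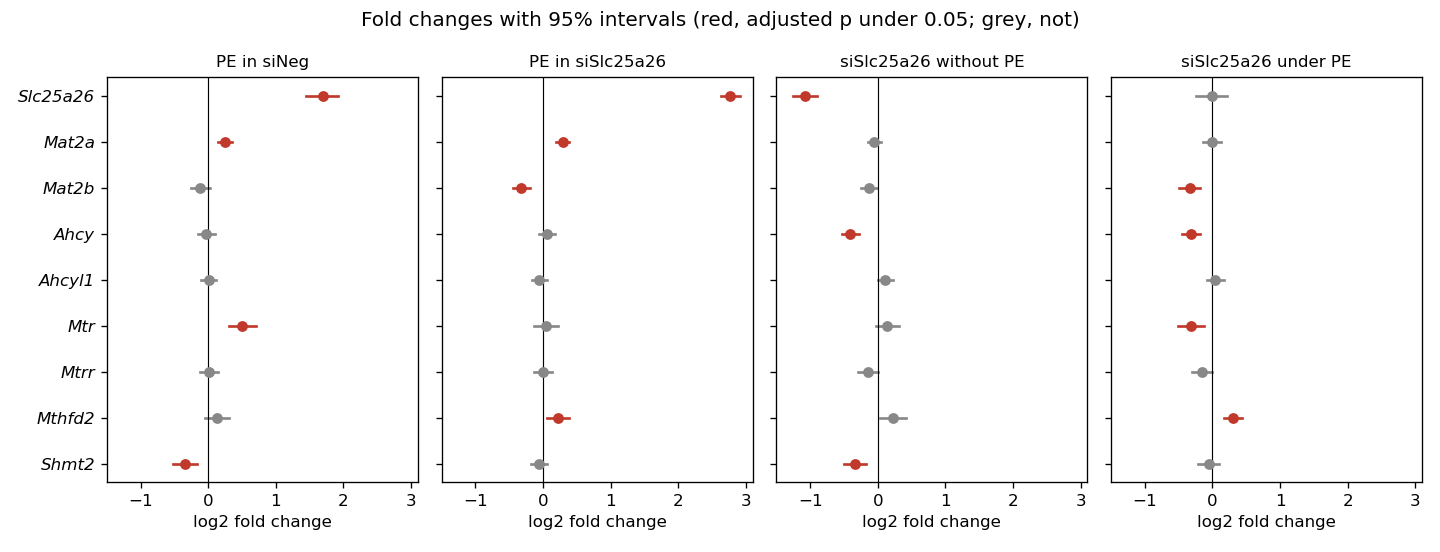
Fitted log2 fold changes of the 9 members in the 4 comparisons with their 95% intervals. Slc25a26 stands apart at 1.69, 2.77 and -1.08 in 3 comparisons but lies at -0.0062 with siSlc25a26 under PE. The other 8 members lie between -0.41 and 0.50.

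Counted over the 9 members, the shares past the test lay near those of all genes. With PE in siNeg, 3 members rose and 1 fell, where 25.2% of all genes rose, 24.3% fell and 49.5% changed in either direction. With PE in siSlc25a26, 3 rose and 1 fell, against 26.4% and 26.0% of genes (52.4% in either direction). With siSlc25a26, 0 rose and 3 fell without PE (23.3% and 21.7% of genes, 45.0% in either direction), and 1 rose and 3 fell under PE (20.1% of genes in each direction, 40.1% in either).

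A fold change over 1.5 together with the test was met by Slc25a26 alone, in 3 comparisons: PE in siNeg (20.7% of genes), PE in siSlc25a26 (20.5%) and siSlc25a26 without PE (16.1%). Under PE 0 members met it (15.8% of genes). Of the differences between the PE effects, 2 members passed, the siRNA target Slc25a26 upwards and Mtr downwards. Of all genes 5.48% passed upwards, 5.73% downwards and 11.2% in either direction. Of the 2 members Slc25a26 also met the fold limit, as did 5.50% of genes.

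The groups of 3 did not overlap for 4 members with PE in siNeg (58.6% of genes), 6 with siSlc25a26 without PE (56.9%), 5 under PE (52.0%) and 4 with PE in siSlc25a26 (61.0%). A permutation test of 3 against 3 cannot give an exact p below 0.1, so none is reported. The median log2 fold change of the members was 0.0081 with PE in siNeg and -0.13 with siSlc25a26 without PE, against 0.000 and 0.015 for all genes. On the FPKM scale the median of all genes moved to -0.13 (pseudocount 1) with PE in siSlc25a26, and the share of higher genes among those past the test and the 1.5-fold limit moved from 49.2% to 27.4% there and from 39.3% to 23.4% for the difference of PE effects.

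By root mean square difference of log2 CPM over the 12 libraries, centred on siNeg, the genes most like Slc25a26 among 10792 ranked were Scd (0.194), Mgat3 (0.237), Cnn1 (0.263), Snap91 (0.297) and Gatm (0.35). Scd, a fatty acid desaturase, had mean CPM of 40.9 in siNeg, 132 in siNeg.PE, 23 in siSlc25a26 and 133 in the libraries labelled siSlc25a26.PE. Cnn1, a calponin of smooth muscle, had 40.5, 122, 18.1 and 184 in the same order. No other member came close: their distances to Slc25a26 ran from 1.14 for Mat2a to 1.5 for Shmt2. Among members the nearest pair was Mat2b and Ahcy (0.161), and the consecutive enzymes Mthfd2 and Shmt2 lay 0.556 apart.

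**Figure D4:**
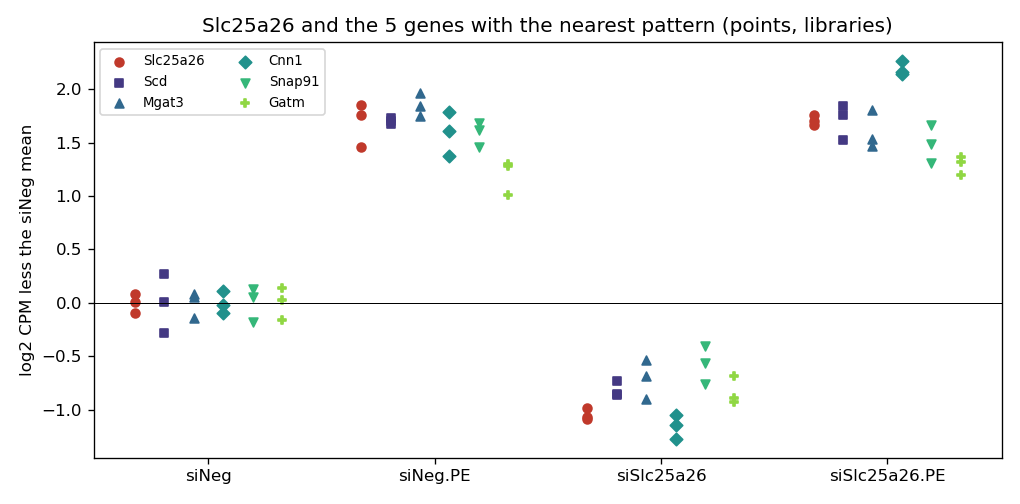
Log2 CPM relative to the siNeg mean for Slc25a26 and the 5 genes nearest to it over the 12 libraries. Slc25a26 and Scd both lie near 1.7 in the 2 PE groups, and at -1.05 and -0.81 in siSlc25a26.

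Other genes of these pathways were read from lists of 70 symbols, of which 65 were in the tables and 59 were tested in each comparison. With PE in siNeg 14 rose and 21 fell (median log2 fold change -0.13, all genes 0.000), and with PE in siSlc25a26 18 rose and 21 fell (-0.01, all genes -0.004). With siSlc25a26 7 rose and 21 fell without PE (-0.13, all genes 0.015), and 9 rose and 17 fell under PE (-0.07, all genes -0.003). Of all genes 25.2% rose and 24.3% fell with PE in siNeg, and 26.4% and 26.0% with PE in siSlc25a26. With siSlc25a26 23.3% of all genes rose and 21.7% fell without PE, and 20.1% passed in each direction under PE. More listed genes fell than rose in all 4 comparisons, though with PE in siSlc25a26 only by 21 to 18, whereas over all genes both directions were near equal. The lists were chosen with earlier results of these data known.

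Of the 3 serine synthesis enzymes, Phgdh and Psat1 passed the test in several comparisons and Psph, which makes serine in the last step, in 0 of the 4 (log2 fold changes -0.13 to 0.075). Phgdh, the first enzyme of serine synthesis, fell 1.65-fold with PE in siNeg (163 ± 15.9 to 99.8 ± 4.38 CPM, adjusted p = 2.27e-04) and 1.49-fold with siSlc25a26 without PE (adjusted p = 4.56e-04). Psat1, the next enzyme, fell 1.54-fold with PE in siSlc25a26 (adjusted p = 3.36e-05) and 1.21-fold with PE in siNeg (adjusted p = 0.00689), with a difference of -0.36 on the log2 scale (adjusted p = 0.0109).

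Of the mitochondrial folate enzymes, Aldh1l2, which oxidises formyl-folate, fell 1.62-fold with siSlc25a26 without PE (adjusted p = 1.66e-04) and 1.43-fold under PE (adjusted p = 0.00215). Sardh, which demethylates sarcosine, fell 1.63-fold with siSlc25a26 under PE (adjusted p = 3.31e-04). Mthfd2l, a paralogue of Mthfd2, rose 2.03-fold with siSlc25a26 without PE, at a low level (1.97 ± 0.585 to 4.07 ± 0.248 CPM, adjusted p = 0.00464). PE in siNeg moved these genes in the same directions. Aldh1l2 fell 1.42-fold (adjusted p = 0.0011), Sardh fell 1.41-fold (adjusted p = 4.02e-04) and Mthfd2l rose 1.93-fold (adjusted p = 0.00903). In the cytosolic folate cycle, Ggh, which shortens folate polyglutamates, fell 1.71-fold with siSlc25a26 under PE (adjusted p = 9.19e-04) but rose 1.42-fold with PE in siNeg (adjusted p = 0.00495).

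Among enzymes that spend SAM, Gamt, the methyltransferase of creatine synthesis, had the largest fall. Its mean CPM was 51.4 ± 2.47 in siNeg, 19.5 ± 2.7 in siNeg.PE, 40.3 ± 0.528 in siSlc25a26 and 9.01 ± 1.3 in the libraries labelled siSlc25a26.PE. Gamt fell 2.65-fold with PE in siNeg and 4.45-fold in siSlc25a26 (adjusted p = 4.41e-05 and 4.73e-07), and the difference of -0.77 on the log2 scale passed the test (adjusted p = 0.0068). Nnmt, which methylates nicotinamide, fell 1.84-fold with siSlc25a26 without PE (adjusted p = 3.54e-05) and 1.81-fold with PE in siNeg (adjusted p = 4.76e-04).

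In polyamine metabolism, which consumes decarboxylated SAM, the regulator Azin1 rose 1.76-fold with PE in siNeg (adjusted p = 2.38e-04) and 2.33-fold in siSlc25a26 (adjusted p = 2.17e-05). Smox, spermine oxidase, rose 2.26-fold with siSlc25a26 under PE (11.7 ± 0.997 to 26.6 ± 1.64 CPM, adjusted p = 2.63e-05). For the difference of the PE effects, 5 listed genes passed upwards (Smox, Srm, Fpgs, Adk and Odc1, log2 0.34 to 0.67) and 2 downwards (Gamt and Psat1). Of all genes 5.48% passed this test upwards and 5.73% downwards. Srm, the synthase of spermidine, Odc1, the decarboxylase that makes putrescine, and Fpgs, which lengthens folate polyglutamates, were named here after their values were seen.

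**Figure D5:**
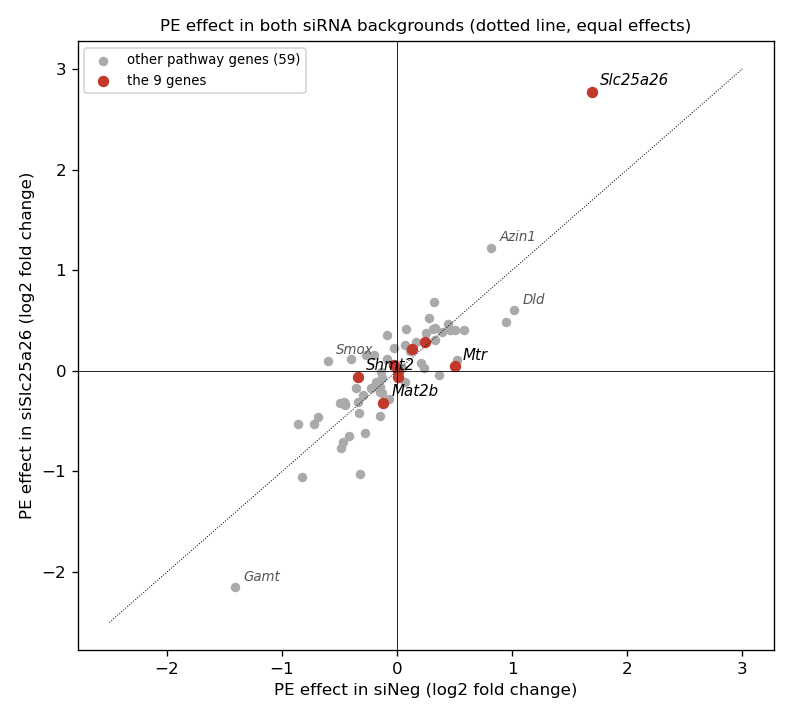
Log2 fold change with PE in siNeg against that in siSlc25a26 for the 9 members and 59 other pathway genes, with the line of equal effects. Slc25a26 lies above the line at 1.69 and 2.77, and Gamt lies below it at -1.41 and -2.15.

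Markers of other cells and states moved with the groups. Summed CPM of 10 fibroblast markers ranged from 27192 to 30139 in siNeg, 14746 to 15325 in siNeg.PE, 16043 to 17992 in siSlc25a26 and 11492 to 12532 in the libraries labelled siSlc25a26.PE, and 6 of the 10 fell and 2 rose (Pdgfra and Dcn) with PE in siNeg. With siSlc25a26 8 fell and 1 rose (Tcf21), both without and under PE, and with PE in siSlc25a26 6 fell and 1 rose (Pdgfra), where 24.3%, 21.7%, 20.1% and 26.0% of all genes fell in the 4 comparisons in this order. Fewer cells of a type and less RNA per cell cannot be told apart in these bulk samples. The sum of 10 cardiomyocyte markers was 30500 to 34872 without PE and 42517 to 51682 with PE, and that of endothelial markers was 21.9 to 29.3 in all libraries. Of the 10, 5 rose and 1 fell (Myh6) with PE in siNeg, and 8 rose and 1 fell with PE in siSlc25a26. With siSlc25a26 1 rose and 4 fell without PE, and 2 rose and 3 fell under PE. The endothelial marker Kdr fell and Tek rose with PE in siNeg (2.12-fold and 1.26-fold) and in siSlc25a26 (1.94-fold and 1.65-fold). Of all genes 25.2%, 23.3%, 20.1% and 26.4% rose in the 4 comparisons, in the order used for the fibroblast markers. Macrophage markers summed to 23.6 to 29.6 CPM in siNeg, 12.6 to 14.1 in siNeg.PE, 14.6 to 15.3 in siSlc25a26 and 11.2 to 13.3 in the libraries labelled siSlc25a26.PE. Of the 5 tested, 4 fell with PE in siNeg, 3 with siSlc25a26 without PE and 1 with PE in siSlc25a26. Under PE 1 of 4 tested fell with siSlc25a26, and Cd163 was under 3 counts in all 12 libraries. The 5 smooth muscle markers summed to 2816 to 3031 CPM in siNeg and to 1310 to 1736 in the other groups, but did not move alike. With PE in siNeg 3 fell and 2 rose, Cnn1 (2.99-fold, adjusted p = 2.63e-05) and Rgs5 (1.68-fold, adjusted p = 0.00419), and both also rose with PE in siSlc25a26, Cnn1 10.2-fold (adjusted p = 1.22e-08). All 5 fell with siSlc25a26 without PE, and under PE 3 fell and 1 rose (Cnn1).

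The 14 interferon-induced genes summed to 187 to 279 CPM with siNeg and 5444 to 9641 CPM with siSlc25a26, and 13 rose with siSlc25a26 in each comparison. With PE 2 of the 14 rose and 4 fell in siNeg, and 1 rose and 12 fell in siSlc25a26. Of 10 cycling markers, 8 rose and 0 fell with PE in siNeg, and 3 rose and 0 fell with PE in siSlc25a26. With siSlc25a26 0 of the 10 rose, and 4 fell without PE and 10 under PE. Of all genes 25.2% rose and 24.3% fell with PE in siNeg, and 26.4% and 26.0% with PE in siSlc25a26. With siSlc25a26 23.3% of all genes rose and 21.7% fell without PE, and 20.1% passed in each direction under PE. The natriuretic peptides Nppa and Nppb, which mark hypertrophy, summed to 121 to 146 CPM in siNeg, 2728 to 4106 in siNeg.PE, 236 to 394 in siSlc25a26 and 8005 to 8513 in the libraries labelled siSlc25a26.PE. The part of these shifts in the values of the 9 members was not tested.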

How the data were processed

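Total RNA of 12 NRVM cultures was sequenced by BGI. The authors deposited a table of estimated counts per gene, not normalized, and a table of FPKM (fragments per kilobase, scaled to the library); per the labels, HISAT, Bowtie2 and Rnor_6.0 were used, and the counting program and strand setting are not given in the sources used here. Library totals were 24770972 to 28709049 counts, and 20.8% to 21.9% of values were not whole (tolerance 0.005). Counts were rounded, filtered by expression, scaled by TMM and fitted with edgeR 4.0.16 (R 4.3.3) quasi-likelihood tests on the 6 libraries of each comparison, and on all 12 for the difference of PE effects, with Benjamini-Hochberg adjustment over the 13671 to 14097 genes tested. A gene passed at an adjusted p under 0.05. Scripts were tested on simulated data. Replicates differed by 5.52 or more chi-square units per gene. Alternatives were DESeq2 1.42.0, its size factors, no filter, 10 counts in every library, limma 3.58.1 on log2(FPKM + 1) and log2(FPKM + 0.1), a replicate block, all 12 libraries together and each library left out. Of the gene IDs, 91.8% matched RefSeq. The members and lists were chosen with earlier results of these data known. Named pathway genes were, per list and comparison, up to 2 that rose and 2 that fell most among those past the test, without overlap and with 10 counts in each library of the higher group; the text gives a selection of them.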

Additional observations from a re-analysis of the deposited data

Results flagged for a closer look

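The effect of PE differed between the siRNAs for 2 of the 9 members. For Slc25a26 the log2 fold change with PE was larger in siSlc25a26 than in siNeg by 1.06 ± 0.128 (adjusted p = 4.66e-04, edgeR quasi-likelihood interaction over 12 libraries), and it was at least 0.94 and past the test in all 19 alternatives. As Slc25a26 is the siRNA target, this difference is no separate result. It restates the fall with siSlc25a26 without PE (-1.08), which was absent under PE (-0.0062). For Mtr the log2 fold change with PE was smaller by 0.48, a difference of -0.48 ± 0.122 (adjusted p = 0.026), and it passed in 13 of 19 alternatives, with adjusted p from 0.00857 to 0.0761. Over all genes 11.2% passed this test in either direction. Both values rest on the 3 libraries labelled siSlc25a26.PE, in which Slc25a26 was not below siNeg.PE.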

How the results depend on the processing

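Of 675 values of the 9 members under the alternatives, 597 kept their direction and their side of the threshold, 16 were no longer past it, 26 newly passed it and 36 changed sign. None of the sign changes (0 of 36) concerned a member that had passed. The cause of the shifts was not tested. With limma on log2(FPKM + 1), and on log2(FPKM + 0.1) in second place, the log2 values that changed sign were, with PE in siNeg, -0.062 and -0.064 for Ahcyl1 and -0.0017 and -0.0018 for Mtrr. With PE in siSlc25a26 they were -0.11 and -0.11 for Ahcy and -0.10 and -0.12 for Mtr. For the difference of PE effects they were -0.056 and -0.057 for Mat2a, -0.039 and -0.041 for Ahcy, and -0.044 and -0.045 for Mthfd2. Members past the test under both pseudocounts were 2 lower with PE in siNeg (Shmt2 and Mat2b), 2 higher with siSlc25a26 without PE (Ahcyl1 and Mthfd2), 3 lower with PE in siSlc25a26 (Mat2b, Ahcyl1 and Shmt2) and 2 lower for the difference (Mtr and Mat2b). Over all genes, log2(FPKM + 1) gave 857 higher and 733 lower past the test and 1.5-fold with PE in siNeg (1708 and 1130 in the count test), 452 lower with siSlc25a26 without PE (996), 623 higher under PE (1054) and 564 higher with PE in siSlc25a26 (1389), and 164 higher for the difference (305). With PE in siSlc25a26 the genes past the test alone were 2015 higher and 5653 lower (2018 and 5651 with the pseudocount of 0.1; 3634 and 3585 in the count test). The pseudocount of 0.1 gave 824 higher and 2214 lower past 1.5-fold there (1436 lower in the count test). For the difference 1759 and 1650 passed lower at the pseudocounts of 1 and 0.1 (808), 485 passed higher at 0.1 (773), and 768 lower passed 1.5-fold at 0.1 (471). For Mtrr with PE in siSlc25a26 DESeq2 and its size factors both gave 0.0026, and no filter gave 0.00064. All 12 libraries in 1 fit gave 0.0045 for Slc25a26 under PE, and 2 members higher with siSlc25a26 without PE (Ahcyl1 and Mthfd2).

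The labels number the replicates alike in each group, and same-numbered libraries deviated together in some cases but not throughout (correlations from -0.0913 to 0.217). With PE in siNeg, siNeg 3 gave 0.217 with its own number and at most -0.0167 with others. With siSlc25a26 without PE, siNeg 2 gave -0.0913 and up to 0.0676. These mixed values cannot decide whether the number pairs the libraries, and the main fits did not pair them. A fit with the replicate number as a block gave 0.0032 for Slc25a26 under PE, 1 member higher with siSlc25a26 without PE (Mthfd2), 2 higher for the difference (Slc25a26 and Shmt2) and 1270 genes lower for the difference against 808. Mtrr passed under PE with the block (-0.16), as it did with limma on FPKM at both pseudocounts (-0.20 and -0.21) and with all 12 libraries in 1 fit (-0.15).

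With each library left out in turn, values ranged as follows. With PE in siNeg, Ahcy ran from -0.063 to 0.0087, Ahcyl1 from -0.013 to 0.034 and Mtrr from -0.0026 to 0.029. Mthfd2 passed there without siNeg 1 (0.22, adjusted p = 0.0268). With siSlc25a26 without PE, 0 to 1 members passed higher (Mtr without siNeg 3, 0.19, adjusted p = 0.0485; otherwise Mthfd2). Under PE, Slc25a26 ran from -0.13 to 0.084 and Mat2a from -0.054 to 0.0076. With PE in siSlc25a26, Mtr ran from -0.018 to 0.11 and Mtrr from -0.031 to 0.026. For the difference, Mthfd2 ran from -0.016 to 0.13, Mtrr from -0.058 to 0.0045, members passed from 1 to 2 higher and 0 to 1 lower, and genes passed from 473 to 774 higher and 419 to 1032 lower, of which 301 to 646 lower were past 1.5-fold. With 3 libraries a group, a log2 difference of 0.22 for Mthfd2 passed in one comparison (adjusted p = 0.0298) and missed in another (0.0551).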
